A study of Homo sapiens with 6 samples.

Results

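The data here follow 7 genes after depletion of FOXL2, the forkhead transcription factor of granulosa cells: LRRFIP1 and its paralog LRRFIP2, FLII whose product binds both LRRFIP proteins, AKIRIN1 and its paralog AKIRIN2, and EFR3A and its paralog EFR3B. They are 7 of the 60671 genes in the deposited tables and were found by symbol. LRRFIP1, AKIRIN1 and EFR3A were chosen because earlier results of these libraries had them lower after FOXL2 siRNA, so their change is described without a test. Their 4 relatives were chosen for their kinship, and their change was tested.

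The cells were KGN, a human granulosa cell line that had been genome-edited to hold only wild-type FOXL2 (labelled FOXL2 WT/WT), in both conditions alike. They received 30 pmol of siRNA in all, either a pool of 3 siRNAs against FOXL2 or a control siRNA, and RNA was taken 30 h later for mRNA sequencing, with 3 libraries per condition. The 3 FOXL2 pools were drawn from 4 siRNAs, with 1 common to all pools and each of the others in 2 of them, and each FOXL2 siRNA library therefore received a different mixture. The FOXL2 siRNA libraries thus came from separate transfections, whereas the sources used here do not say whether the control siRNA libraries did, and the spread between those may be technical. As a model the system is 1 cell line. Among 10 granulosa genes, FOXL2, NR5A1, INHBB and STAR had a control mean of at least 1 TPM (the share of transcripts, a level that takes transcript length into account), whereas FSHR and WT1 were listed at 0 in every library. The summed TPM of these 10 genes, FOXL2 included, was 61.9 to 64.4 with the control siRNA and 64.2 to 65.9 with the FOXL2 siRNAs. NR5A1 (34.9 TPM) and STAR (15.3 TPM) had the highest control means among them. Of 10 markers of Sertoli, theca, Leydig, immune, endothelial and epithelial cells, only SOX9 had a control mean of at least 1 TPM. That mean was 6.71 TPM, above the 5.45 TPM of FOXL2. The sums of these 10 markers were 7.14 to 9.28 and 6.39 to 11.9 TPM, so the ranges of the 2 conditions overlapped.

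The libraries held 23843192 to 28791954 expected counts. FOXL2 itself fell from 10.1 ± 0.596 to 2.76 ± 0.487 CPM (library-scaled counts, TMM-normalized, SD, n = 3), to 27.3% of its control level (log2 fold change -1.88, SE 0.143, adjusted p = 0.0031 by edgeR's quasi-likelihood test). Without control siRNA replicate 1 this adjusted p was 0.0530. FOXL2 siRNA replicate 2 stood apart from the other libraries on the first principal component, scoring 40.9 where the other 5 libraries scored between -17.2 and -0.0227. Each of the 7 genes is given with and without it where it is the extreme library.

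As background, LRRFIP1 and LRRFIP2 are coiled-coil proteins that were found as partners of the leucine-rich repeats of Flightless-1, the product of FLII, which is a member of the gelsolin family of actin-binding proteins. LRRFIP1 also binds nucleic acids and has been described as a repressor at GC-rich promoters and as a cytosolic sensor. LRRFIP2 takes part in Wnt and Toll-like receptor signalling. Akirins are small nuclear proteins without a known DNA-binding domain, which link transcription factors to BAF chromatin remodelling complexes. AKIRIN2 also takes part, with the importin IPO9, in bringing proteasomes into the nucleus. EFR3 proteins sit at the plasma membrane through palmitoylation and anchor there the lipid kinase PI4KA, with TTC7 and hyccin proteins, to make phosphatidylinositol 4-phosphate.

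Because LRRFIP1 and AKIRIN1 were both lower after FOXL2 siRNA and AKIRIN2 and LRRFIP2 were not called, the stretches just before a RefSeq start site of each are shown for comparison (GRCh38.p14, gene strand, 5′ to 3′). They were searched on both strands for the forkhead core GTAAACA and for the shorter TAAACA that it contains, and capitals mark a match. The AKIRIN1 stretch is chr1:38991026-38991222 on the plus strand, that of AKIRIN2 is chr6:87702234-87702483 on the minus strand, and that of LRRFIP1 is chr2:237627337-237627575 on the plus strand. The LRRFIP2 stretch, chr3:37175216-37175465 on the minus strand, lies before an internal start within the gene, and is shown because it holds a match.
AKIRIN1: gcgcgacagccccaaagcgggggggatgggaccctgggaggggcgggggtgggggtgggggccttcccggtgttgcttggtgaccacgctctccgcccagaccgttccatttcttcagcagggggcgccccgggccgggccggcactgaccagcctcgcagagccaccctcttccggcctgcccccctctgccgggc
AKIRIN2: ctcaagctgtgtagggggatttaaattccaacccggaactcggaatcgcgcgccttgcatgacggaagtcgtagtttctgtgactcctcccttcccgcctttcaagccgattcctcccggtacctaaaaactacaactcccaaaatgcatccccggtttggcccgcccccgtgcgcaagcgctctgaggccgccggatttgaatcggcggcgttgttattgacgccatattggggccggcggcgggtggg
LRRFIP1: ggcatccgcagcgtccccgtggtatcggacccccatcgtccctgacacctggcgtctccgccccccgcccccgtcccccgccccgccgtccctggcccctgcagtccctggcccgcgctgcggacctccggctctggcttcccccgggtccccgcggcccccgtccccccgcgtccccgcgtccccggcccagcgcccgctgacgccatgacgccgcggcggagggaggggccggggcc
LRRFIP2: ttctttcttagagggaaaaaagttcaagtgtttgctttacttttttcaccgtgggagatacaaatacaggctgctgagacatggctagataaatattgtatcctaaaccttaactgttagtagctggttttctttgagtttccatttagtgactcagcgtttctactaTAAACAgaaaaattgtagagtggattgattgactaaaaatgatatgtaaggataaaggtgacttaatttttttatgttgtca

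No capitals stand in the AKIRIN1, AKIRIN2 and LRRFIP1 stretches. RefSeq windows of 300 bases, from 250 before to 50 after a start, were at hand for 6 of the 7 genes. GTAAACA was in none of their 10 windows and in 3.42% of the 35116 windows of all genes. TAAACA was in 2 of the 10, both of LRRFIP2, and in 12.3% of all windows. G and C made up 74.3% of the AKIRIN1 window and 58.7% of that of AKIRIN2, where the median of all windows was 58.7%, and 82.7% of the first LRRFIP1 window. The FLII window had 73.0% and those of EFR3B 72.0% and 76.3%, so relatives that were not called also had high values. The 3 LRRFIP2 windows (32.7% to 35.7%) all lie at internal starts within the gene and the window at its 5′ end was not analysed here, so they are not set against that of LRRFIP1. These matches are letters in a window and not sites of binding. The study also concerns RNA with repeated G doublets. A run of 8 G doublets with gaps of 1 to 4 bases was in the longest GENCODE v29 transcript of 1 of the 7 genes, EFR3B, and of 19.3% of 15530 tested genes. Among all annotated transcripts it was also in 1 of the 15 of LRRFIP1, and in none of AKIRIN1 and EFR3A.

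All 7 genes passed the filter on low counts. With the control siRNA, FLII had the highest level (202 ± 17.1 TPM, SD, n = 3) and LRRFIP1 the next (159 ± 7.37), followed by LRRFIP2 (73.1 ± 2.89), AKIRIN1 (43.0 ± 1.36), EFR3A (41.5 ± 1.51), AKIRIN2 (34.1 ± 0.291) and EFR3B (0.257 ± 0.0153). The control ranges of AKIRIN1 and EFR3A overlapped, and those of the other neighbours in this order did not. FLII stood at percentile 95.4 of the control TPM of the 15663 genes tested and LRRFIP1 at percentile 93.9, whereas EFR3B stood at percentile 1.63.

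**Figure D1:**
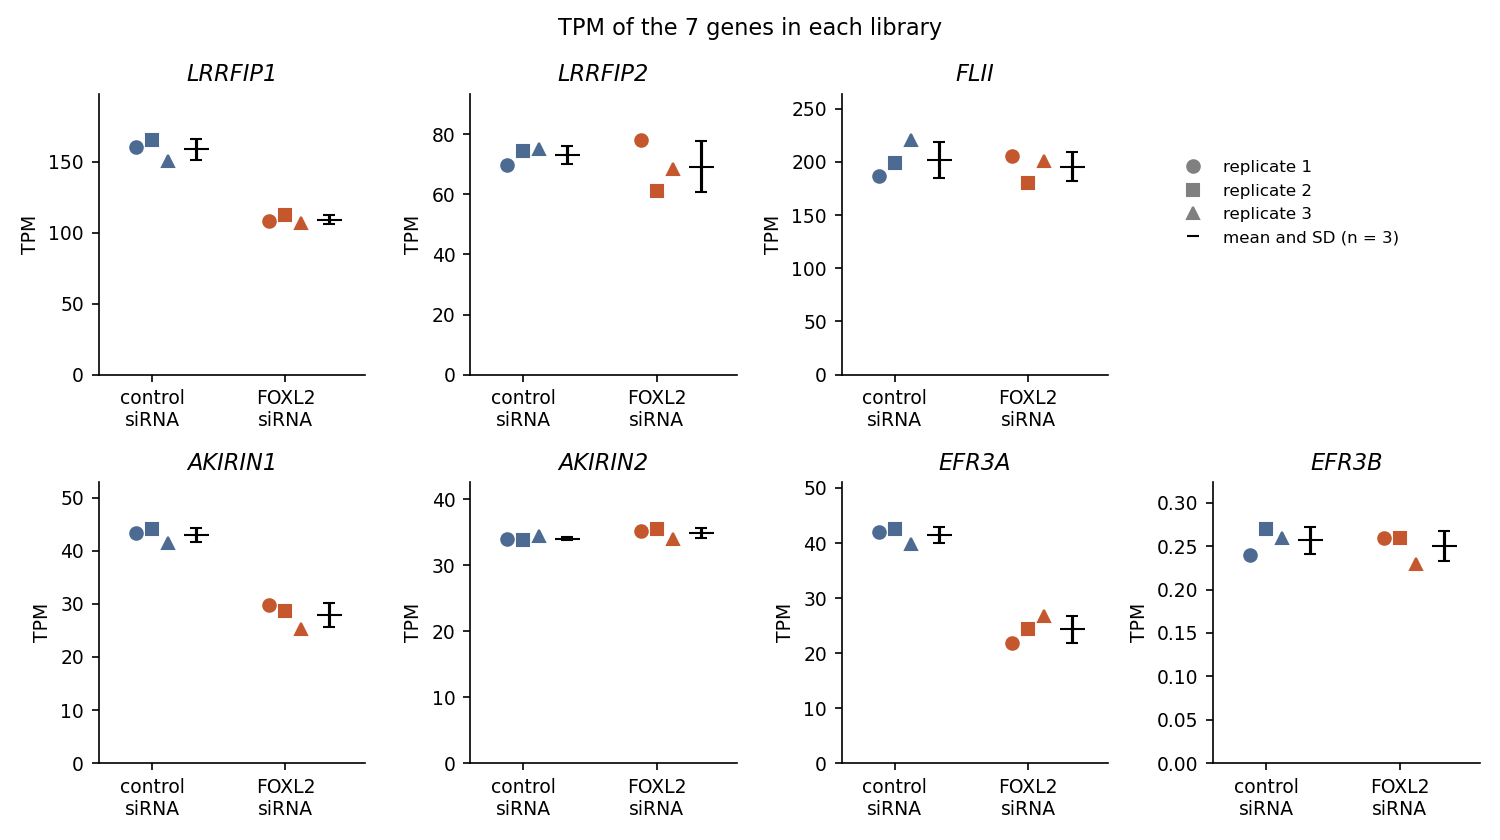
TPM (vertical axis, from 0, its own scale in each panel) of the 7 genes in the 3 control siRNA libraries (blue) and the 3 FOXL2 siRNA libraries (orange). Points are libraries, with a shape for each replicate number, and bars give the mean and SD. The conditions do not overlap for LRRFIP1, AKIRIN1 and EFR3A, the genes chosen for being lower, and they overlap for LRRFIP2, FLII, AKIRIN2 and EFR3B.

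LRRFIP1 (ENSG00000124831, chromosome 2 of GRCh38, 237627576 to 237813682, plus strand, 15 annotated transcripts) had 351, 361 and 338 CPM after the control siRNA, and the FOXL2 siRNA libraries had 238, 233 and 230 CPM. The conditions did not overlap, and the 3 FOXL2 siRNA libraries lay close to each other, at 68.0%, 66.5% and 65.6% of the control mean. The means were 350 ± 11.8 and 233 ± 4.20 CPM (SD, n = 3), a log2 fold change of -0.58 (SE 0.0554, 95% interval -0.71 to -0.46). The adjusted p was 0.00788 by edgeR's quasi-likelihood test, a value that belongs to the choice of the gene and is no separate test. That test called 0.262% of the genes tested in either direction and 0.153% as lower. Leaving out any 1 control library, or FOXL2 siRNA replicate 3, raised the adjusted p to between 0.0571 and 0.136, with the log2 fold change between -0.61 and -0.56. These are bulk libraries, in which fewer cells that use the gene and less of its RNA per cell cannot be told apart. In TPM the libraries held 161, 165 and 151 with the control siRNA and 108, 113 and 107 with the FOXL2 siRNAs.

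LRRFIP2 (ENSG00000093167, chromosome 3, 37052656 to 37183689, minus strand, 20 transcripts) had 84.2, 88.2 and 87.4 CPM with the control siRNA and 90.5, 72.7 and 80.4 CPM with the FOXL2 siRNAs. FOXL2 siRNA replicate 1 was above all control libraries and replicates 2 and 3 were below them, so the conditions overlapped. Its log2 fold change was -0.09 (SE 0.0837, 95% interval -0.28 to 0.10) and did not pass the test (adjusted p = 0.664, edgeR). Without FOXL2 siRNA replicate 2 it was -0.02. The interval of LRRFIP2 reached down to -0.28 and that of LRRFIP1 reached up to -0.46. LRRFIP1 was chosen on this contrast, so the gap between the intervals is a description and no test.

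FLII (ENSG00000177731, chromosome 17, 18244836 to 18258916, minus strand, 30 transcripts), which encodes the partner of both LRRFIP proteins, had 286, 292 and 316 CPM with the control siRNA and 296, 262 and 296 CPM with the FOXL2 siRNAs. FOXL2 siRNA replicate 2 was the lowest of the 6 libraries and the other FOXL2 siRNA libraries lay within the control range. On the log2 scale the fold change was -0.07 (SE 0.0708, 95% interval -0.23 to 0.10) and did not pass the test (adjusted p = 0.725, edgeR), and without replicate 2 it was -0.01.

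The transcripts of LRRFIP1 relative to its paralog were 2.30, 2.21 and 2.01 per LRRFIP2 transcript (TPM ratio) with the control siRNA and 1.39, 1.84 and 1.56 with the FOXL2 siRNAs. LRRFIP1 remained the more abundant of the pair in all 6 libraries. Against its partner FLII, the LRRFIP1 ratio was 0.862, 0.830 and 0.684 with the control siRNA and 0.528, 0.624 and 0.531 with the FOXL2 siRNAs. On the log2 scale these ratios differed by -0.45 (SE 0.132) for LRRFIP2 and by -0.50 (SE 0.130) for FLII, values given as a description because LRRFIP1 was chosen on this contrast. The ratio of LRRFIP2 to FLII, in which no chosen gene takes part, was 0.363 ± 0.0198 and 0.353 ± 0.0230 (SD, n = 3). The sum of LRRFIP1 and LRRFIP2 was 232 ± 7.10 TPM with the control siRNA and 179 ± 6.85 TPM with the FOXL2 siRNAs, or 76.9% of the control level.

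LRRFIP1P1, a pseudogene of LRRFIP1, could take reads from it. It held 25.5 to 42.08 expected counts per library, 0.417% of the counts of LRRFIP1 over the 6 libraries, and its log2 fold change was -0.22 (SE 0.243, adjusted p = 0.733, edgeR). LRRFIP2P1 was listed at 0 in every library.

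AKIRIN1 (ENSG00000174574, chromosome 1, 38991223 to 39006059, plus strand, 4 transcripts) had 70.9, 70.9 and 68.2 CPM after the control siRNA, against 47.1, 41.8 and 42.3 CPM after the FOXL2 siRNAs. The conditions were wide apart relative to the spread within each, with means of 70.0 ± 1.55 and 43.7 ± 2.91 CPM (SD, n = 3), and the level left was 62.4% of the control. The log2 fold change was -0.68 (SE 0.0702, 95% interval -0.84 to -0.52), the lowest of the 7 genes in this fit and rank 200 from the lowest of all genes tested. Its adjusted p was 0.0114 by edgeR, which again belongs to the choice. Leaving out any 1 control library, or FOXL2 siRNA replicate 3, raised the adjusted p to between 0.0571 and 0.165, with the log2 fold change between -0.70 and -0.66. Without replicate 2, its lowest library, the log2 fold change was -0.65. In limma on log2(TPM + 1) and log2(TPM + 0.1) it was -0.61 and -0.63, with adjusted p of 0.0623 and 0.0574.

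AKIRIN2 (ENSG00000135334, chromosome 6, 87675072 to 87702209, minus strand, 2 transcripts) had 37.9, 37.3 and 40.7 CPM with the control siRNA and 39.5, 36.8 and 38.3 CPM with the FOXL2 siRNAs. The conditions overlapped, and the means were 38.7 ± 1.80 and 38.2 ± 1.33 CPM (SD, n = 3). Its fitted log2 fold change was -0.02 (SE 0.0698, 95% interval -0.17 to 0.14) and did not pass the test (adjusted p = 0.944, edgeR), and without FOXL2 siRNA replicate 2 it was 0.0039. In the edgeR fit that took transcript length into account it was 0.03, so the fits gave AKIRIN2 no common sign.

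In TPM the order of the akirins turned over. AKIRIN1 held 43.4, 44.1 and 41.5 TPM in the control siRNA libraries, where AKIRIN2 held 33.9, 33.9 and 34.4 TPM. In the FOXL2 siRNA libraries AKIRIN1 held 29.7, 28.6 and 25.3 TPM and AKIRIN2 held 35.2, 35.5 and 34.0 TPM. The ratio of AKIRIN1 to AKIRIN2 was thus above 1 in every control library (1.28, 1.30 and 1.21) and below 1 in every FOXL2 siRNA library (0.844, 0.805 and 0.745), a log2 difference of -0.66 (SE 0.0624). In CPM, which do not take transcript length into account, AKIRIN1 stayed above AKIRIN2 in all 6 libraries, with ratios of 1.10 to 1.90. The sum of both akirins was 77.0 ± 1.07 TPM and 62.8 ± 3.03 TPM (SD, n = 3), or 81.5% of the control level after FOXL2 siRNA. The akirin pseudogenes took almost no reads, as AKIRIN1P1 and AKIRIN1P2 had at most 1 expected count in any library and AKIRIN2P1 was listed at 0.

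EFR3A (ENSG00000132294, chromosome 8, 131904088 to 132013642, plus strand, 8 transcripts) had 87.9, 90.6 and 81.6 CPM with the control siRNA and 49.8, 68.9 and 57.9 CPM with the FOXL2 siRNAs. The conditions did not overlap, but the FOXL2 siRNA libraries spread more widely than those of LRRFIP1 and AKIRIN1, with means of 86.7 ± 4.64 and 58.9 ± 9.61 CPM (SD, n = 3). The log2 fold change was -0.56 (SE 0.111, 95% interval -0.81 to -0.31), and its adjusted p by edgeR was 0.103, so EFR3A was not among that test's calls. Without FOXL2 siRNA replicate 2, its highest library after depletion, the log2 fold change was -0.69 (adjusted p = 0.00421, edgeR). That fit called 534 of all genes, where the fit with all libraries called 41. Without FOXL2 siRNA replicate 1, its lowest, the log2 fold change of EFR3A was -0.45 (adjusted p = 0.106, edgeR). These adjusted p values belong to the choice of the gene and are no separate tests.

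The value of EFR3A depended on transcript length. In TPM it held 42.1, 42.6 and 39.7 with the control siRNA and 21.8, 24.4 and 26.7 with the FOXL2 siRNAs, so that 58.6% of the control level was left, against 67.9% in CPM. The length that RSEM gave EFR3A, an average over its isoforms weighted by their estimated abundance, was 3278, 3351 and 3151 bases with the control siRNA and 3518, 4638 and 3380 bases with the FOXL2 siRNAs. All FOXL2 siRNA libraries were above all control libraries, and replicate 2 was far above the rest. A length without overlap between the conditions, in either direction, was found for 9.21% of the genes tested. The mean log2 difference in length was 0.22 (SE 0.146) and 0.08 without FOXL2 siRNA replicate 2, and its absolute size stood at percentile 92.6 of the genes tested. The library with the longest EFR3A estimate was thus also the one with the highest EFR3A CPM after FOXL2 siRNA, and in TPM it was the middle one. GENCODE v29 lists 2 EFR3A transcripts over 5000 bases (5438 and 5247), another coding one of 2547 and 5 under 1000, and reads cannot be assigned to these isoforms from the gene tables. The transcripts that RSEM used may differ in length from these.

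Correcting the counts for RSEM's effective length in each library moved the log2 fold change of EFR3A to -0.77 in edgeR (SE 0.0804, adjusted p = 0.00791) and to -0.78 in DESeq2, from -0.56 in both tools without the correction. DESeq2 called EFR3A in both cases, and the calls of EFR3A in these fits again belong to its choice. These fits called 0.236% (edgeR with lengths), 3.0% (DESeq2) and 2.8% (DESeq2 with lengths) of the genes they tested, and LRRFIP1 and AKIRIN1 were also called in each of the 3. All 3 of the chosen genes had every FOXL2 siRNA library below every control library in CPM, as did 10.6% of the genes tested, and none of the other 4 did. Since the choice was made on this contrast, nothing follows from that count.

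EFR3B (ENSG00000084710, chromosome 2, 25042130 to 25159137, plus strand, 5 transcripts) was at a very low level. It had 28, 19 and 28 expected counts with the control siRNA and 27, 16 and 20 with the FOXL2 siRNAs, or 0.24, 0.27 and 0.26 TPM against 0.26, 0.26 and 0.23 TPM. The conditions overlapped. The log2 fold change in CPM was -0.32 (SE 0.281, 95% interval -0.96 to 0.31, adjusted p = 0.649, edgeR). It was -0.23 without FOXL2 siRNA replicate 2 and -0.04 with effective lengths in edgeR. The interval of EFR3B includes both 0 and the value of EFR3A. EFR3A outnumbered EFR3B 175-fold, 158-fold and 153-fold in TPM with the control siRNA and 83.8-fold, 93.7-fold and 116-fold with the FOXL2 siRNAs. The log2 difference of this ratio was -0.74 in TPM and -0.24 in CPM. The sum of both EFR3 genes was 41.7 TPM and 24.5 TPM, or 58.8% of the control level, which is almost wholly EFR3A.

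**Figure D2:**
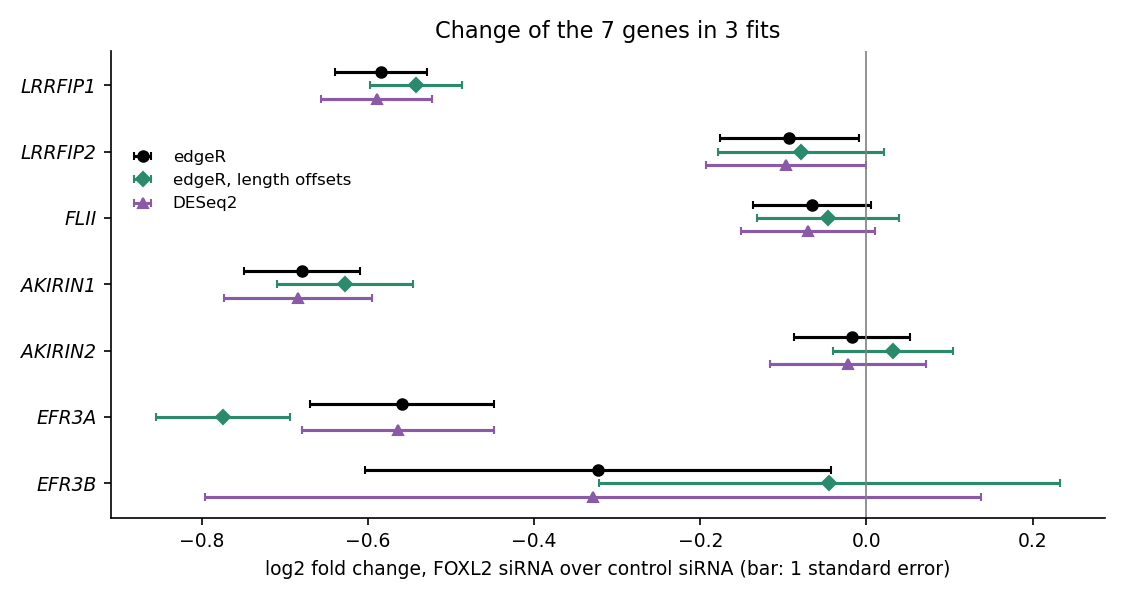
Log2 fold change of the 7 genes, FOXL2 siRNA over control siRNA (horizontal axis), in edgeR (black circles), edgeR with effective lengths as offsets (green diamonds) and DESeq2 (purple triangles), with bars of 1 standard error. LRRFIP1 and AKIRIN1 lie between -0.54 and -0.68 in the 3 fits, EFR3A moves from -0.56 to -0.77 with the length offsets, and AKIRIN2 lies between -0.02 and 0.03.

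The RSEM length of the other genes was compared in the same way. The 4 relatives overlapped between conditions, with two-sided exact permutation p of 0.8 (LRRFIP2), 0.9 (FLII), 0.3 (AKIRIN2) and 0.4 (EFR3B), where 3 libraries against 3 cannot give less than 0.1. LRRFIP1 differed by -0.02 on the log2 scale (SE 0.00915) and AKIRIN1 by -0.02 (SE 0.0306), and both overlapped between conditions. The EFR3B lengths ranged from 4189 to 7210 bases over the 6 libraries, on 16 to 28 reads each.

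**Figure D3:**
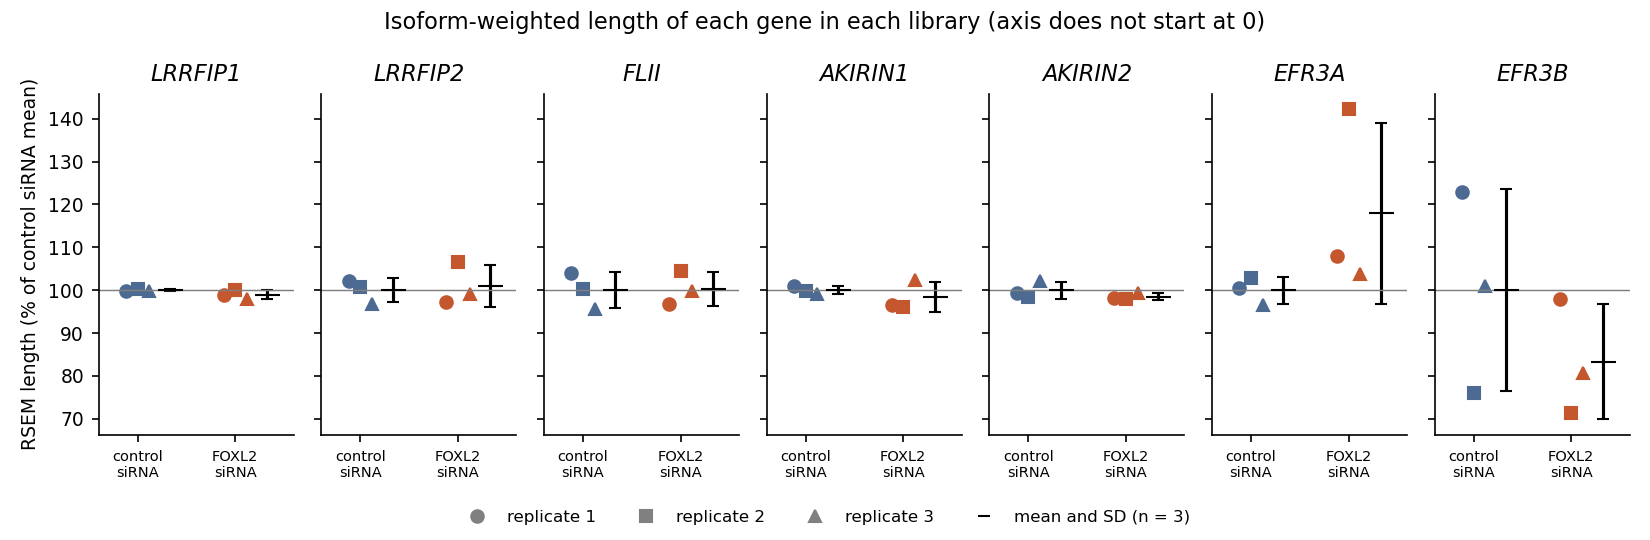
RSEM length of each gene, in percent of its control siRNA mean (vertical axis, which does not start at 0), in the control siRNA libraries (blue) and the FOXL2 siRNA libraries (orange), with mean and SD. EFR3A is longer in all 3 FOXL2 siRNA libraries, most of all in replicate 2, EFR3B varies widely in both conditions, and the other 5 genes stay near 100%.

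The genes that work with these proteins were read from 5 lists, 45 genes of which 41 were tested. None was called by edgeR, and 25 had a fitted value below 0 and 16 above. At an unadjusted p below 0.05 there were 11 (6 lower, 5 higher), which is 26.8% of the 41 where 13.4% of all genes tested met that threshold. DESeq2 called 2 of them, and 3 with effective lengths, where it called 3.0% and 2.8% of all the genes it tested. Without FOXL2 siRNA replicate 2, edgeR called 4 (TMEM150A, PI4K2B, MYD88 and SMARCE1). That fit called 534 of all genes, where the fit with all libraries called 41. The median log2 fold change over the 41 was -0.04, and over all genes tested it was 0.01.

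Around EFR3A, 11 of 12 genes of the PI4KA complex and of related phosphoinositide kinases were tested, with a median log2 fold change of -0.02, and 2 were lower and 2 higher at an unadjusted p below 0.05. HYCC1, the hyccin with the highest level of the list, had 91.6 ± 3.28 and 92.8 ± 17.7 TPM (SD, n = 3) and a log2 fold change of 0.02 (SE 0.148). Its FOXL2 siRNA libraries held 78.8, 113 and 86.8 TPM, with replicate 2 above every control library and the others below. HYCC2, the other hyccin, had the largest fitted value of the list, 0.54 (SE 0.130, adjusted p = 0.143, edgeR), which DESeq2 called (adjusted p = 0.0294), and with effective lengths in DESeq2 it was 0.16 (adjusted p = 0.810). PI4KB, a kinase that makes the same lipid at the Golgi, was singled out after its values were seen because DESeq2 called it with lengths and without them. It held 47.9, 43.3 and 51.2 TPM with the control siRNA and 38.9, 32.0 and 33.3 TPM with the FOXL2 siRNAs. The conditions did not overlap, and the log2 fold change was -0.48 (SE 0.101), with an adjusted p of 0.110 in edgeR and 0.00110 in DESeq2. Without FOXL2 siRNA replicate 1 edgeR called PI4KB (-0.61, adjusted p = 0.00855), in a fit that called 109 of all genes. It also did so without a filter (adjusted p = 4.3e-05), where it called 737 of all genes. PI4KA, the kinase that EFR3 anchors, is also named with its values known, and had a log2 fold change of -0.17 in edgeR (SE 0.0636, adjusted p = 0.321) and -0.0011 in DESeq2 with effective lengths.

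Around LRRFIP1 and FLII, 5 of 7 gelsolin family genes were tested, with a median of -0.14. GSN, which encodes gelsolin, had the highest level of these (log2 fold change -0.16, SE 0.0702, adjusted p = 0.369, edgeR), and AVIL, which encodes advillin, the largest value (0.31, SE 0.260). All 8 signalling partners of FLII and the LRRFIP proteins were tested, with a median of 0.03. CTNNB1, the β-catenin gene of Wnt signalling, was the highest at 203 ± 13.7 TPM in control libraries (SD, n = 3) with a log2 fold change of -0.02 (SE 0.0551), and MYD88, the Toll-like receptor adaptor, had the largest value (-0.37, SE 0.172, adjusted p = 0.387, edgeR). Of 4 genes that have been described as repressed by LRRFIP1, TNF was listed at 0 in all libraries and 3 were tested, with a median of -0.05. PDGFA, which encodes a platelet-derived growth factor chain, had the highest level of these and a log2 fold change of 0.23 (SE 0.0907, adjusted p = 0.328, edgeR). SLC1A2, a glutamate transporter gene, had -0.59 (SE 0.309) on a level under 1 TPM. No gene of these lists was called by DESeq2 either.

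All 14 akirin partners and BAF subunits were tested, with a median of -0.08, and 11 had a fitted value below 0. SMARCE1, a BAF subunit, had both the highest level and the largest value. It held 91.9, 87.6 and 91.6 TPM with the control siRNA and 49.4, 80.4 and 70.6 TPM with the FOXL2 siRNAs. Every FOXL2 siRNA library was below every control library, but they differed widely among themselves, and the log2 fold change of -0.40 (SE 0.148) did not pass the test (adjusted p = 0.302, edgeR). DESeq2 with effective lengths called SMARCE1 (adjusted p = 0.0291) and SMARCA2, an ATPase of the complex (log2 fold change -0.37, adjusted p = 0.00480), the latter singled out for that call. Without lengths SMARCA2 had a log2 fold change of -0.19 in edgeR (SE 0.0593, adjusted p = 0.244).

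**Figure D4:**
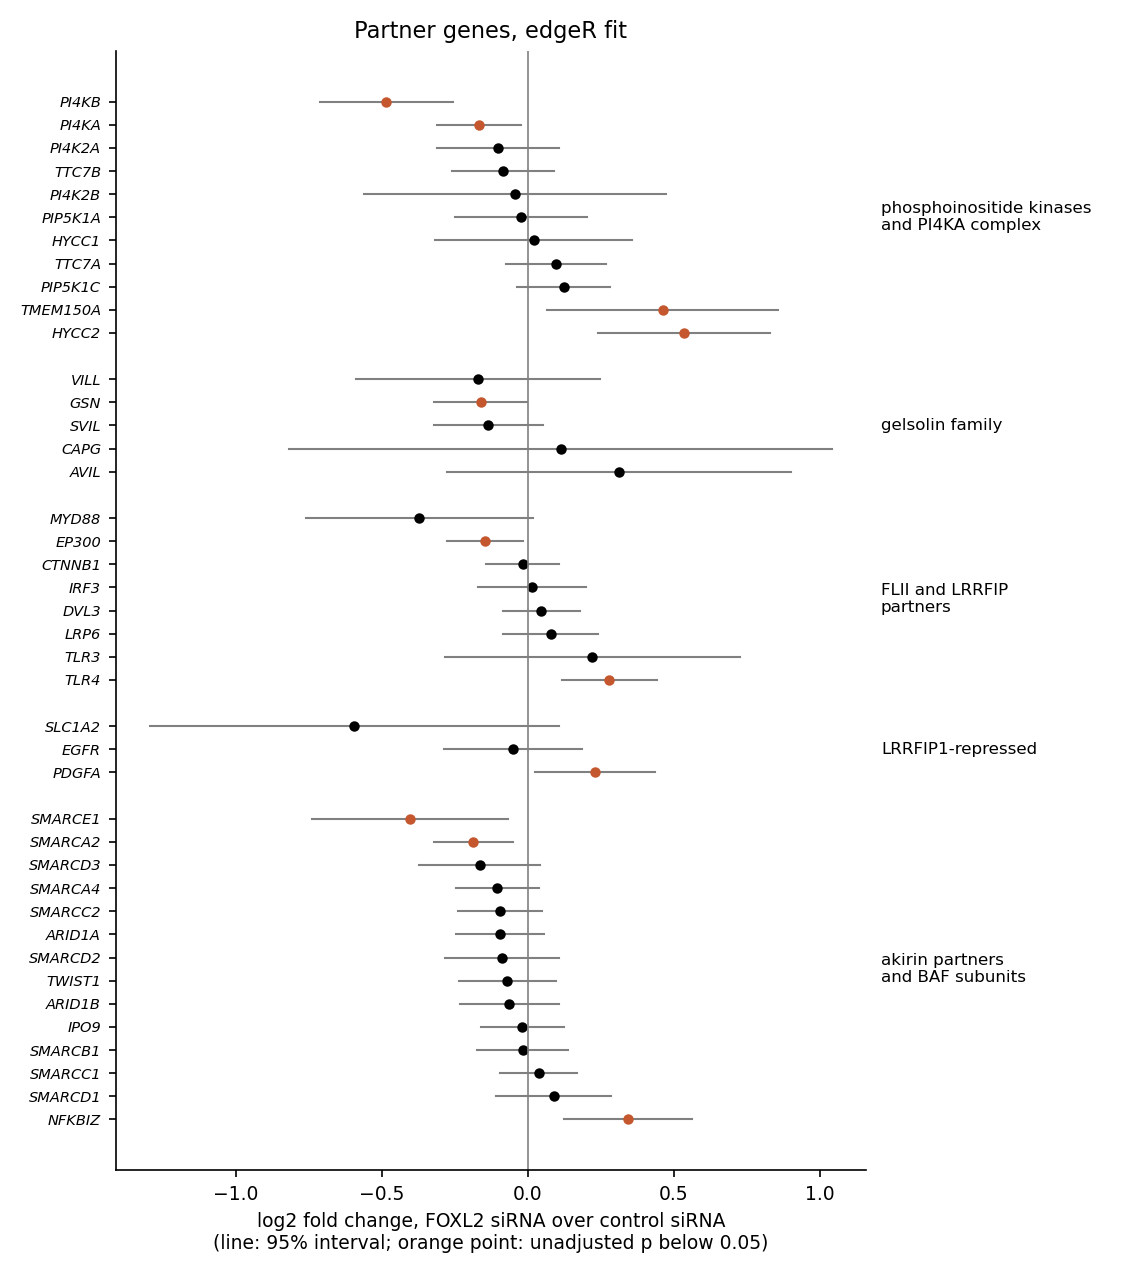
Log2 fold change, FOXL2 siRNA over control siRNA (horizontal axis), of the 41 tested genes of the 5 lists in edgeR, with 95% intervals as lines. Orange points are the 11 genes with an unadjusted p below 0.05, none of which passed after adjustment, and PI4KB at -0.48 and HYCC2 at 0.54 are the ones DESeq2 called without lengths.

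Among 9466 genes with a mean of at least 10 CPM, those whose log2 CPM over the 6 libraries was most like that of each chosen gene are given as a description, since the points share their libraries and the difference between conditions. For LRRFIP1 they were ANKFY1 (Pearson r = 0.996), ME1 (0.993) and FAM120AOS (0.992). For AKIRIN1 they were APPL2 (0.996), ANKFY1 (0.995) and GDE1 (0.993). ANKFY1, which encodes an endosomal Rab5 effector, was thus near both, with a log2 fold change of -0.24 (SE 0.0565). For EFR3A they were KAT14 (0.999), INPP5F (0.998) and VSIG10 (0.995). INPP5F encodes a phosphoinositide 4-phosphatase and had a log2 fold change of -0.51 (SE 0.119), whereas that of KAT14 was -0.18 (SE 0.0789). With the mean of each condition removed, r was 0.856, 0.596 and 0.770 for the 3 genes of LRRFIP1, in the order given. It was 0.862, 0.805 and 0.787 for those of AKIRIN1, and 0.996, 0.997 and 0.978 for those of EFR3A.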

How the data were processed

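The authors aligned single reads of poly(A) RNA libraries with STAR 2.7.6a and estimated expression with RSEM 1.3.1, per the submitters' processing notes. Their test was that of DESeq2 1.26.0, and here DESeq2 is among the alternatives, in another version. Those notes name the build GRCm38, which is a mouse build, whereas the tables hold human Ensembl identifiers. For the human build, the annotation release and the strand setting of the counting, the sources used here give nothing. Every deposited table gives an expected count (an estimated count, not normalized), a TPM value scaled by the authors to depth and transcript length, and a length and effective length per gene and library. Reads that paralogs share are divided between them by RSEM's model.

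Expected counts were rounded and fitted over all genes kept by filterByExpr (15663 genes) with TMM factors and the quasi-likelihood test of edgeR 4.0.16 in R 4.3.3, FOXL2 siRNA against control siRNA, and p-values were adjusted by Benjamini-Hochberg (threshold 0.05). TMM factors also scale the CPM values. The test was tested on simulated data. Single values were compared by a two-sided exact permutation test. Sample groups and replicate numbers came from the labels. The main fit did not pair the libraries by number, and the sources used here do not say whether same-numbered libraries belong together. Whole numbers made up 66.8% to 69.1% of the nonzero expected counts, and errors are SDs over 3 libraries.

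Alternatives were DESeq2 1.42.0, its size factors in edgeR, effective lengths as offsets in both tools, limma-voom and limma on log2(TPM + 1) and log2(TPM + 0.1) for genes with a mean of at least 1 TPM (limma 3.58.1), no filter, unrounded counts, a minimum mean of 50 counts, a block for the replicate number, and each library left out. Coordinates are from GENCODE v29, in which 88.0% of the genes had the same transcript identifiers as in the tables, among them all 7. Transcript versions, sequences and lengths were not compared. The RSEM length of AKIRIN2 was 1808 to 1888 bases, above its longest GENCODE v29 transcript of 1662 bases. The transcript models behind the deposited values thus differed from v29 for at least AKIRIN2. Transcript lengths and the search for G doublets given here are those of v29. Start-site windows are from RefSeq.

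Named genes were the 7, FOXL2, their pseudogenes, the highest gene and the gene with the largest change of each list, and the 3 genes most correlated with each chosen one. PI4KB, PI4KA, SMARCA2, TMEM150A and PI4K2B fall outside this rule and were named after their values were seen. The genes and lists were chosen with earlier results of these data known.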

Additional observations from a re-analysis of the deposited data

How the results depend on the processing

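Of 116 refits of the 7 genes, 103 kept their direction, their side of the test's threshold or, where there was no test, their size. The log2 fold change of LRRFIP1 was -0.54 with effective lengths in edgeR and -0.54 in limma on log2(TPM + 1) and on log2(TPM + 0.1). EFR3A was at -0.77 with effective lengths in edgeR, -0.78 with them in DESeq2, and -0.75 and -0.77 in limma on log2(TPM + 1) and log2(TPM + 0.1). AKIRIN2 changed sign, at 0.032, 0.027, 0.034 and 0.035 in these 4 fits and between -0.043 and 0.020 with 1 library left out. The length difference lay between -0.026 and 0.039 for LRRFIP2 and between -0.026 and 0.034 for FLII with 1 library left out, so it had no stable sign. The ratio of EFR3A to EFR3B differed by -0.24 on the log2 scale in CPM. For the 5 lists, DESeq2 called 2 genes, edgeR without a filter 3 and DESeq2 with effective lengths 3. With 1 library left out edgeR called 0 to 4. The 4 (TMEM150A, PI4K2B, MYD88 and SMARCE1) were called without FOXL2 siRNA replicate 2, and PI4KB alone without FOXL2 siRNA replicate 1. Beyond the construction of each alternative, the cause was not tested.

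Over all genes, edgeR's 41 calls became 350 in DESeq2, 344 in DESeq2 with effective lengths, 737 without a filter, 67 with at least 50 counts, 13 in either limma fit on TPM, and 0 to 534 with 1 library left out, 0 being without control siRNA replicate 1 and 534 without FOXL2 siRNA replicate 2. EFR3B was too low for the fits with a minimum count or TPM, and DESeq2 gave it no adjusted p.

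The labels call the libraries Pool 1 to 3 in both conditions. Same-numbered libraries had correlations of -0.139, 0.295 and 0.264 between their deviations from the condition means, and not every library correlated best with its own number. With so few libraries these correlations cannot decide whether the libraries are paired. With the replicate number as a block, edgeR called 11 genes, LRRFIP1 (-0.58, adjusted p = 0.0387) and AKIRIN1 (-0.68, adjusted p = 0.0411) among them, and EFR3A stayed at -0.57 (adjusted p = 0.115). LRRFIP2, FLII, AKIRIN2 and EFR3B were not called with the block.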
